A study of Rattus norvegicus with 22 samples.

Results

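The genes described here code for the proteins that fill, dock and fuse synaptic vesicles and for their relatives in other secretory steps. Members were chosen by patterns of gene symbols, with earlier results of these data known. The patterns cover synaptotagmin, syntaxin, syntaxin-binding protein, VAMP, SNAP, complexin, synapsin, SV2, Rab3, RIM and Unc13 genes in the count table. Relatives with other forms of symbol, such as Stxbp5l, are not members. The rule found 69 of 32883 genes, and 17 of the 69 form the core of fast transmitter release (among them Syt1, Syt2, Snap25, Vamp1, Vamp2, Stx1a, Cplx1, Cplx2, Syn1, Syn2, Sv2a, Sv2c, Rab3a, Rims1 and Unc13a). Sv2b and Snap23 were not analysed here.

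RNA was sequenced from the ventral part of the cervical spinal cord, segments C3 to C6, with 1 library per Sprague-Dawley rat of 3 to 4 months. The groups were 5 intact males with testes, 5 gonadectomized (GDX) males whose testes had been removed, 6 virgin intact females with ovaries and 6 ovariectomized (OVX) females. GDX and OVX rats had received buprenorphine and isoflurane for surgery, and their tissue was taken 2 weeks later. The paper describes no sham surgery of intact rats, so surgery with its drugs and loss of the gonads cannot be told apart. The design asks how loss of the gonads changes gene expression in a region that holds the motor neurons of the forelimb and of the diaphragm. Between 12371756 and 17571887 reads were counted per library, with medians of 14196615 and 15645521 for intact and GDX males and of 14640726 and 14766802.5 for intact and OVX females. Rats carry the numbers of their labels, and values listed by rat run in the order 1, 2, 3, 5, 6 for intact males and 1, 2, 4, 5, 6 for GDX males. Libraries fell into a shorter and a longer class of input fragment size, with all GDX and OVX libraries, intact males 2 and 5 and intact females 1 and 4 in the shorter class and the other 7 intact rats in the longer class. Gonadectomy and library class are therefore partly confounded.

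A synaptic vesicle fuses when the vesicle SNARE protein synaptobrevin (VAMP) zips together with syntaxin and SNAP-25 on the plasma membrane. Munc13 and RIM proteins prepare this step at the active zone, complexins hold the assembled complex ready, and synaptotagmins trigger fusion when calcium enters. Synapsins tether the reserve pool of vesicles, Rab3 guides vesicles to the membrane, and SV2 is a membrane protein of the vesicle. In the ventral cord these proteins serve the terminals of descending fibres and interneurons, while motor neurons release acetylcholine mainly from terminals in muscle, outside the tissue taken.

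The members together took a small share of the reads. This share of all counts was 0.709% ± 0.0323 (SD, n = 5) for intact and 0.612% ± 0.04998 (n = 5) for GDX males. For females it was 0.668% ± 0.0179 (n = 6) when intact and 0.649% ± 0.0381 (n = 6) after OVX. Cplx3, Cplx4 and Syt8 were nearly silent, with 23, 31 and 34 reads over all 22 libraries, and were removed by the filter on low counts in every comparison. Syt15, with 183 reads in all, passed the filter in 4 of the 6 comparisons. Between 65 and 66 members were tested in each comparison. Levels below are CPM, the reads of a gene scaled to the size of its library with edgeR's TMM factors. They depend on transcript length, so they are compared between rats, and a gene with the highest CPM of its list need not have the most transcripts.

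Removal of the testes was followed by lower levels of much of the release machinery. In GDX against intact males edgeR called 21 of 65 members tested at an adjusted p under 0.1, or 32.3%, where 13.4% of all 14931 genes tested were called. Of these, 19 were lower in GDX males (6.58% of all genes were called lower) and 2, Vamp3 and Stxbp4, were higher (6.78% of all genes). The lower genes include the synaptotagmins Syt2, Syt3, Syt4, Syt7 and Syt12, the SNARE partners Snap25, Stxbp5 and Cplx1, the priming proteins Unc13a and Rims1, Rab3a and Rab3c, all synapsins, Sv2c, and Snap91. The median log2 fold change was -0.086 over the members and 0.0021 over all genes tested. In the core, 11 of 17 members were called, all lower, and 16 of 17 had a negative estimate, with a median of -0.24. Outside the core 8 of 48 were called lower and 2 higher, with a median of -0.002. Tissue was measured in bulk, so fewer terminals or neurons and less RNA per cell cannot be told apart.

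Complete separation of the groups was also common. For 12 of the 65 members every GDX male lay below every intact male, an arrangement seen in 3.94% of all genes tested, and for 1 member, Vamp3, every GDX male lay above every intact male (3.54% of all genes). The 12 include Cplx1, Rab3a, Rab3c, Rims1, Snap25, Snap91, Stxbp5, Sv2c, Syt2 and Syt3. By group mean, intact males were highest in 14 and GDX males lowest in 14 of the 17 core members, while among all 65 the counts were 30 and 31. This order of means was not counted over all genes. When the fit held a term for library class, 17 members were called, 16 lower and 1 higher, while shorter class libraries alone gave 15, all lower. In these settings the median of the members was -0.14 and -0.14, that of the core -0.33 and -0.33, and the number of core members called lower was 11 and 10. Vamp3 and Stxbp4 were not called in either, with estimates of 0.26 and 0.26 for Vamp3 and of 0.41 and 0.41 for Stxbp4. The share of all genes called was 5.33% with the class term and 2.83% in the shorter class.

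**Figure D1:**
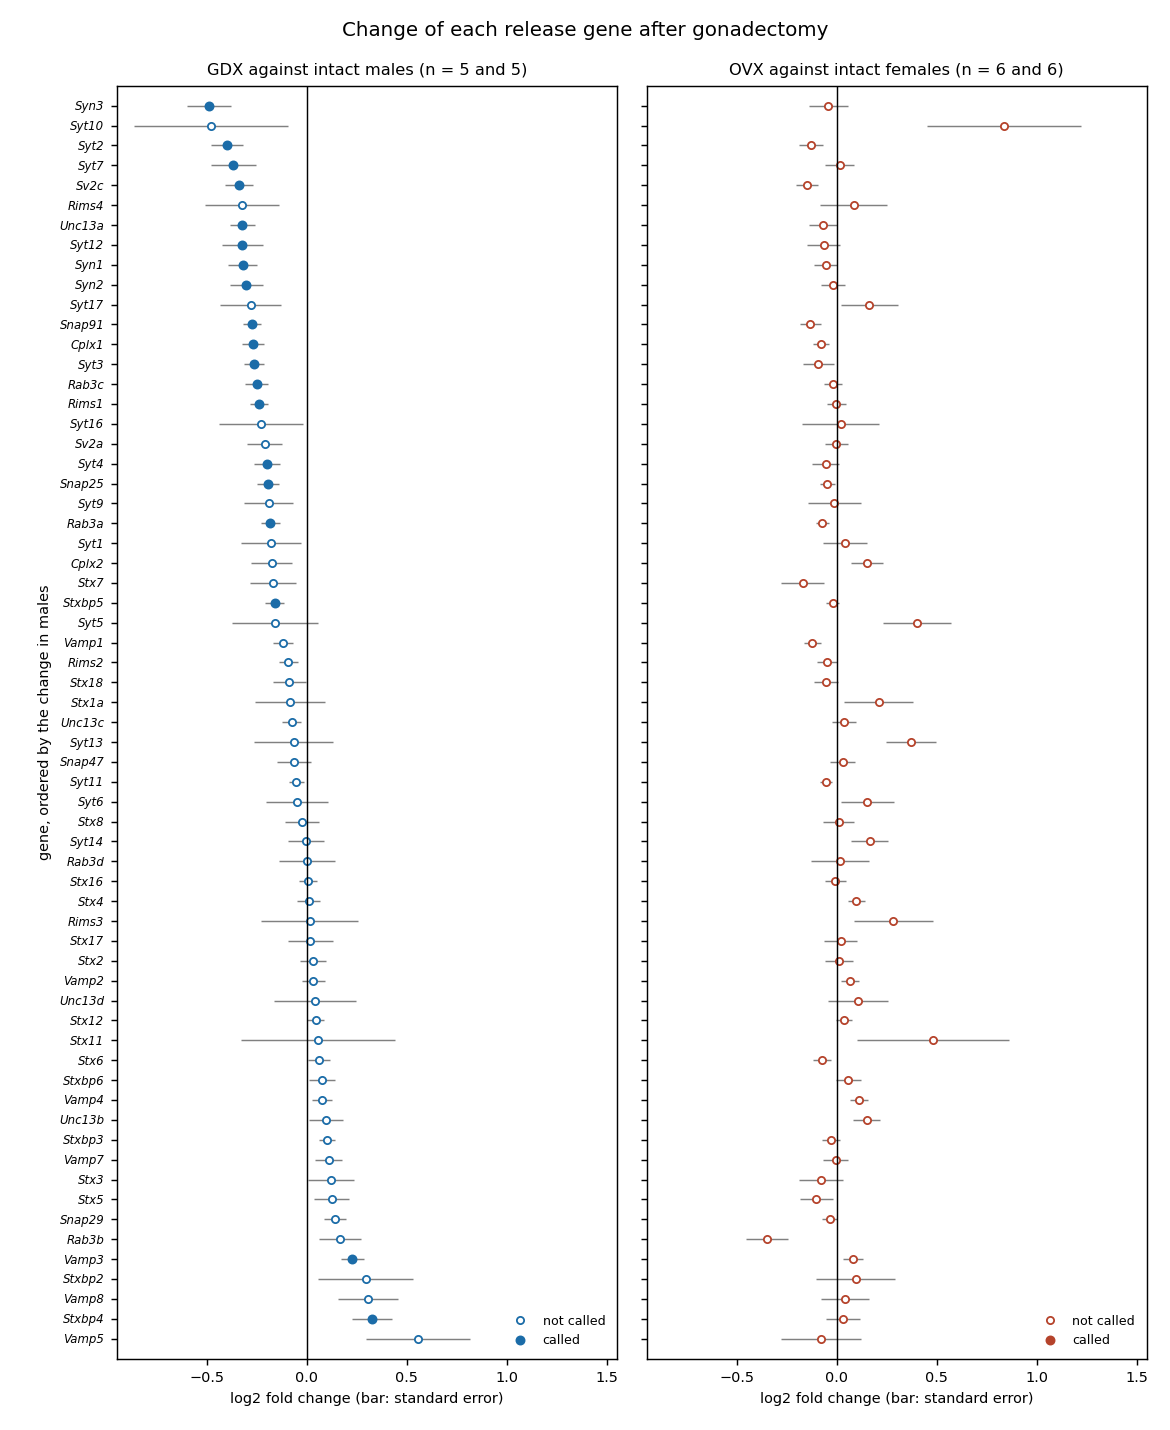
Log2 fold change of 63 members after gonadectomy (horizontal axis, bars are standard errors), with GDX against intact males on the left and OVX against intact females on the right, genes in the order of the male estimate. Filled points are called at an edgeR adjusted p under 0.1, which holds for 19 of those shown in males and 0 in females.

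The sequences just before the starts of 4 core genes are shown, for the lower genes Syn1, Syt2 and Unc13a and for Vamp1, which was not called. RefSeq sequences of the build GRCr8 were matched by symbol for 54 of the 69 members, and the 250 bases before the start were searched on both strands. Each member enters with the first sequence listed for its symbol, while the shares of all upstream sequences count every listed sequence. The count table itself was made on Rnor_6.0, so only gene names link these sources. Capitals mark the cAMP response element TGACGTCA, the GC box GGGCGG on either strand, and the unit AGAACA of the androgen response element, and lines run 5′ to 3′ on the gene's strand.
Syn1 (chrX:3725495-3725744, plus strand): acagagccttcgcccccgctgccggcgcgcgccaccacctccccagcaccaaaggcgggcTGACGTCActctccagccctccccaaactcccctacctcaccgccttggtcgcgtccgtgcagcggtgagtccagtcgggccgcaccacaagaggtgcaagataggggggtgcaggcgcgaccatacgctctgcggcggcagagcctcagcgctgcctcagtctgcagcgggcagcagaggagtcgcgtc
Syt2 (chr13:48736872-48737121, plus strand): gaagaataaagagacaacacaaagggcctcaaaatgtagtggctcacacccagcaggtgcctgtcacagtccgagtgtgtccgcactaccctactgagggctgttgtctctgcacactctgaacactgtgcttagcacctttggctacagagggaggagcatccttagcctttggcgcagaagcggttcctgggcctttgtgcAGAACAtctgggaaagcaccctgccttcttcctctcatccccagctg
Unc13a (chr16:18415787-18416036, minus strand): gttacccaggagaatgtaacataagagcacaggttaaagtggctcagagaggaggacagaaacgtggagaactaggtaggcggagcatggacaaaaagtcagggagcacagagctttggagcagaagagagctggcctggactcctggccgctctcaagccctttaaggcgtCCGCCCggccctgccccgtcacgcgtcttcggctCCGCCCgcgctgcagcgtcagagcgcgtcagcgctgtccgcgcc
Vamp1 (chr4:159698644-159698893, plus strand): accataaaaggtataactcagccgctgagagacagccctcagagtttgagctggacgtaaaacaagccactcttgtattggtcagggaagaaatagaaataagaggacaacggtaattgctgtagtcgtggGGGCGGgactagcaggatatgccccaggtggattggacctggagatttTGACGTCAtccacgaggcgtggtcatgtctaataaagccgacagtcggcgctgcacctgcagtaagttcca
The cAMP response element lies 190 to 183 bases before the start of Syn1 and 71 to 64 bases before that of Vamp1. These were the only 2 of the 54 matched members with it, and 1.59% of all 33469 upstream sequences hold it. GC boxes were present in 35 of 54 matched members, among them 9 of the 12 matched genes called lower in GDX males, against 30.5% of all upstream sequences. TATAAA was found in 2 of 54 members, Stxbp3 and Syt14, against 12.9% of all. The unit AGAACA was found in 6 of 54, including Syt2 and Rab3a, against 17.5% of all. The full androgen element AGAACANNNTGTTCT, of which that unit is a part, was in no member and in 0.012% of all, the full oestrogen element GGTCANNNTGACC in no member and 0.0239%, and TTCAGCACC, the left part of the RE1 element, in no member and 0.305%. Median G and C content was 61% in the members, 66.4% in the core and 51.2% in all upstream sequences. A match describes these letters only.

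All 15 synaptotagmins tested had a negative estimate in GDX males, and their median was -0.20 where that of all genes was 0.0021. Of the 15, 5 were called lower, beside 6.58% of all genes. With library class in the fit and in the shorter class alone 14 of the 15 were negative, as Syt14 went from -0.0055 to 0.15 and 0.15, and in fits without 1 male 13 to 15 were. Syt2 is the fast sensor of synchronous release that prevails in spinal cord and brainstem. Its level was 402, 408, 344, 385 and 379 CPM in the intact males and 338, 325, 255, 249 and 286 CPM in the GDX males. In females Syt2 lay at 316 to 377 CPM (median 361) in intact and 275 to 362 CPM (median 324) in OVX rats. The male groups did not overlap, with GDX males 4, 5 and 6 lowest, while the female groups overlapped. Syt2 fell by 24.2% in GDX males, a log2 fold change of -0.40 ± 0.08 (SE, edgeR adjusted p = 0.00951), the largest fall in the core.

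Syt1 is the fast sensor of forebrain synapses. It stood at 47.1, 61.5, 45.2, 57.5 and 29.7 CPM in the intact males and at 45.6, 49.6, 42.7, 34.5 and 39.8 CPM in the GDX males. The groups overlapped, and intact male 6 had less Syt1 than any GDX male. Its log2 fold change was -0.18 ± 0.15 (edgeR adjusted p = 0.513), and Syt1 was called neither there nor in females, where it ranged over 35.4 to 59.2 CPM in intact and 41.6 to 60.2 CPM in OVX rats. The male Syt1 estimate was -0.49 with library class in the fit (edgeR adjusted p = 0.1) and -0.48 in the shorter class alone (0.0859), where it was called lower, as it was without intact male 6. For longer against shorter libraries of intact rats the Syt1 estimate was -0.47 ± 0.11 (log2), not called by edgeR (unadjusted p = 0.000557, edgeR adjusted p = 0.318).

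Syt3, a sensor with high calcium affinity, was 55.0, 57.0, 53.8, 56.4 and 56.7 CPM in intact and 46.2, 50.3, 44.8, 44.0 and 46.7 CPM in GDX males. These ranges were separate, and the difference of -0.26 ± 0.048 had an edgeR adjusted p of 0.0068. Syt7, the slow sensor of asynchronous release and facilitation, was 34.8, 43.4, 30.1, 38.0 and 28.3 CPM in intact and 30.7, 29.9, 23.2, 23.3 and 27.8 CPM in GDX males, with overlap at the low intact rats 3 and 6. It fell by 22.6% (log2 -0.37 ± 0.11, edgeR adjusted p = 0.0566). Syt12, a family member that does not bind calcium, was 34.7, 36.7, 26.4, 30.5 and 26.6 CPM in intact and 26.4, 28.9, 24.3, 22.3 and 21.8 CPM in GDX males, which overlapped. Syt4, found on dense-core vesicles, was 88.9, 80.6, 91.8, 84.4 and 96.9 and 68.3, 75.5, 87.6, 73.6 and 80.4 CPM and also overlapped. Their edgeR adjusted p was 0.0628 for a log2 change of -0.32 ± 0.10 and 0.0787 for -0.20 ± 0.066, and the calls of Syt4, Syt7 and Syt12 were lost in at least 5 of the 10 fits that left out 1 male. Syt4 went to -0.098 with library class in the fit (edgeR adjusted p = 0.55) and to -0.097 in the shorter class alone, not called in either. Syt7 went to -0.59 and -0.59 and Syt12 to -0.44 and -0.44 in these settings, and both stayed called.

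The rarer synaptotagmins were measured less precisely. Syt10 was at most 1.92 CPM in any rat, and had log2 estimates of -0.48 ± 0.39 in GDX males and 0.84 ± 0.38 in OVX females, neither called. Syt5, another dense-core vesicle member, was 3.05 to 5.54 CPM (median 4.01) in intact and 3.82 to 7.31 CPM (median 5.68) in OVX females, a log2 difference of 0.40 ± 0.17 that was not called. Syt15 was tested in females at 0.46 ± 0.36 and not in males. Its female estimate changed sign with library class in the fit and in the shorter class alone. The other synaptotagmins tested in males, Syt6, Syt9, Syt11, Syt13, Syt14, Syt16 and Syt17, were not called, with estimates from -0.28 to -0.0055.

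Among the SNARE proteins of the plasma membrane Snap25 was lower in GDX males. Snap25, the SNARE anchored on the inner face of the terminal membrane, was 881, 864, 792, 824 and 859.5 CPM in intact and 756, 746, 791, 645 and 745 CPM in GDX males. The ranges touched without overlapping, since GDX male 4 came just below intact male 3. Snap25 fell by 12.7% (log2 -0.20 ± 0.054, edgeR adjusted p = 0.037) and was not called when library class entered the fit, at -0.20, or in shorter class libraries alone, at -0.19. In females Snap25 was 739.8 to 794 CPM (median 759.8) in intact and 706 to 813 CPM (median 726) in OVX rats, which overlapped.

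Stx1a, a syntaxin of nerve terminals, was scarce, at 2.55, 4.07, 4.00, 4.20 and 3.87 CPM in intact and 3.98, 3.87, 3.84, 2.84 and 3.06 CPM in GDX males. Intact male 1 had the lowest Stx1a of all males, the groups overlapped, and Stx1a was not called at -0.086 ± 0.18, nor with library class in the fit, at -0.23.

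A further 12 syntaxins serve traffic between internal membranes or secretion outside synapses, and none was called in any comparison of groups. Their estimates in males ran from -0.17 for Stx7, a syntaxin of late endosomes, to 0.12 for Stx5, a syntaxin of the Golgi. For Stx7 the male estimate turned to 0.019 when library class entered the fit and to 0.021 in the shorter class alone. Stx11 went from 0.057 to 1.00 with library class in the fit and to 1.00 in the shorter class, not called in either. Stx2, Stx8, Stx16 and Stx18 changed sign in both settings and Stx4 with library class in the fit. Stx7 was 21.7 to 34.0 CPM (median 31.7) in intact and 21.8 to 30.1 CPM (median 26.7) in OVX females, a log2 difference of -0.17 ± 0.11 that was not called. Stx11, known from immune cell granules, did not exceed 1.79 CPM in any rat and had a log2 estimate of 0.48 ± 0.38 in OVX females, not called.

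Snap91 matches the symbol rule but codes for the clathrin assembly protein AP180, which helps retrieve vesicle membrane after fusion. It was 168, 168, 159.7, 158 and 178 CPM in intact and 135, 144, 142, 131 and 135 CPM in GDX males. The groups did not overlap, and the fall of 17.4% (log2 -0.28 ± 0.045) had the smallest edgeR adjusted p of all members, 0.00554. In females it was 143 to 157 CPM (median 154) in intact and 124 to 162 CPM (median 138) in OVX rats, with OVX female 4 above all intact females, and the log2 difference of -0.13 ± 0.052 was not called. Snap29, a SNARE of autophagosomes, and Snap47 were not called at 0.14 ± 0.057 and -0.066 ± 0.085. Snap29 was called higher in the fit of all 22 rats, with the replicate block and without GDX male 4.

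Vamp1, the synaptobrevin that prevails in spinal cord, was 763, 778, 793, 756 and 879.9 CPM in intact and 722, 727, 753, 684 and 763 CPM in GDX males. Vamp1 ranges overlapped between these groups, and its log2 estimate of -0.12 ± 0.05 was not called by edgeR (adjusted p = 0.152) but was called by DESeq2. With library class in the fit it was -0.072, and -0.07 in the shorter class alone. OVX females had 657 to 789 CPM (median 728) of Vamp1 and intact females 749 to 827 CPM (median 785), a log2 difference of -0.12 ± 0.043 that was not called. Vamp2, the synaptobrevin of most forebrain synapses, was 130.4, 145, 124, 139 and 118 CPM in intact and 138, 141, 129, 123.3 and 139 CPM in GDX males. It overlapped widely and was the only core member with a positive estimate in males, 0.032 ± 0.058, which was not called. That estimate turned to -0.081 when library class entered the fit and to -0.08 in shorter class libraries alone, also not called.

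Vamp3 (cellubrevin), which serves recycling endosomes in most cell types, changed in the opposite direction to the release genes. It was 42.2, 39.3, 44.6, 42.7 and 40.9 CPM in intact and 49.8, 45.7, 51.9, 53.0 and 45.0 CPM in GDX males, with every GDX male above every intact male. Vamp3 rose by 17.0% (log2 0.23 ± 0.058, edgeR adjusted p = 0.0271). Vamp5, known from muscle, and Vamp8, of late endosomes and secretory granules, had estimates of 0.55 ± 0.26 and 0.31 ± 0.15 in males and were not called. Vamp5 was called higher in the fit without GDX male 2. Intact male 2 had the lowest Vamp8 of the 22 rats, at 4.37 CPM. Vamp4 and Vamp7 were not called in any comparison of groups.

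Stxbp5 (tomosyn), which holds SNARE assembly back, was 127, 130.4, 118, 122 and 125 CPM in intact and 117, 118, 107, 101 and 112 CPM in GDX males, with GDX male 2 at 117.72 CPM just below intact male 3 at 117.74 CPM. It fell by 10.54% (log2 -0.16 ± 0.049, edgeR adjusted p = 0.0542), a call held in 6 of 10 fits without 1 male. It was not called with library class in the fit, at -0.18, or in the shorter class alone, at -0.18.

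Stxbp4 (Synip), a syntaxin-4 partner studied in insulin-regulated traffic, was 8.50, 7.77, 11.1, 9.64 and 9.18 CPM in intact and 11.3, 10.4, 12.3, 11.6 and 12.3 CPM in GDX males. Only intact male 3 reached into the GDX range. It rose by 25.4% (log2 0.33 ± 0.10, edgeR adjusted p = 0.0573), a call held in 4 of 10 fits without 1 male. Stxbp2, Stxbp3 and Stxbp6 were not called, with estimates of 0.29, 0.10 and 0.075. Stxbp3 was called higher in the fit without intact male 3.

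Cplx1, the complexin most tied to fast spinal and brainstem synapses, was 459, 473, 422, 452 and 441 CPM in intact and 404, 394, 339.9, 338 and 385 CPM in GDX males. No GDX male reached the lowest intact male, and GDX males 4 and 5 were lowest. Cplx1 fell by 17.1% (log2 -0.27 ± 0.056, edgeR adjusted p = 0.011), and in females it was 406 to 436 CPM (median 430.4) in intact and 379 to 430.2 CPM (median 401) in OVX rats. Cplx2, its relative of forebrain synapses, was 60.9, 76.9, 55.2, 66.7 and 49.0 CPM in intact and 59.0, 59.8, 56.0, 49.3 and 48.6 CPM in GDX males. These overlapped, with both shorter class intact males highest. Cplx2 was not called at -0.18 ± 0.10, but was called lower when library class entered the fit, at -0.39, and in shorter class libraries alone, at -0.39. Its estimate for longer against shorter libraries of intact rats was -0.30 ± 0.06, not called by edgeR (unadjusted p = 0.000161, edgeR adjusted p = 0.254).

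**Figure D2:**
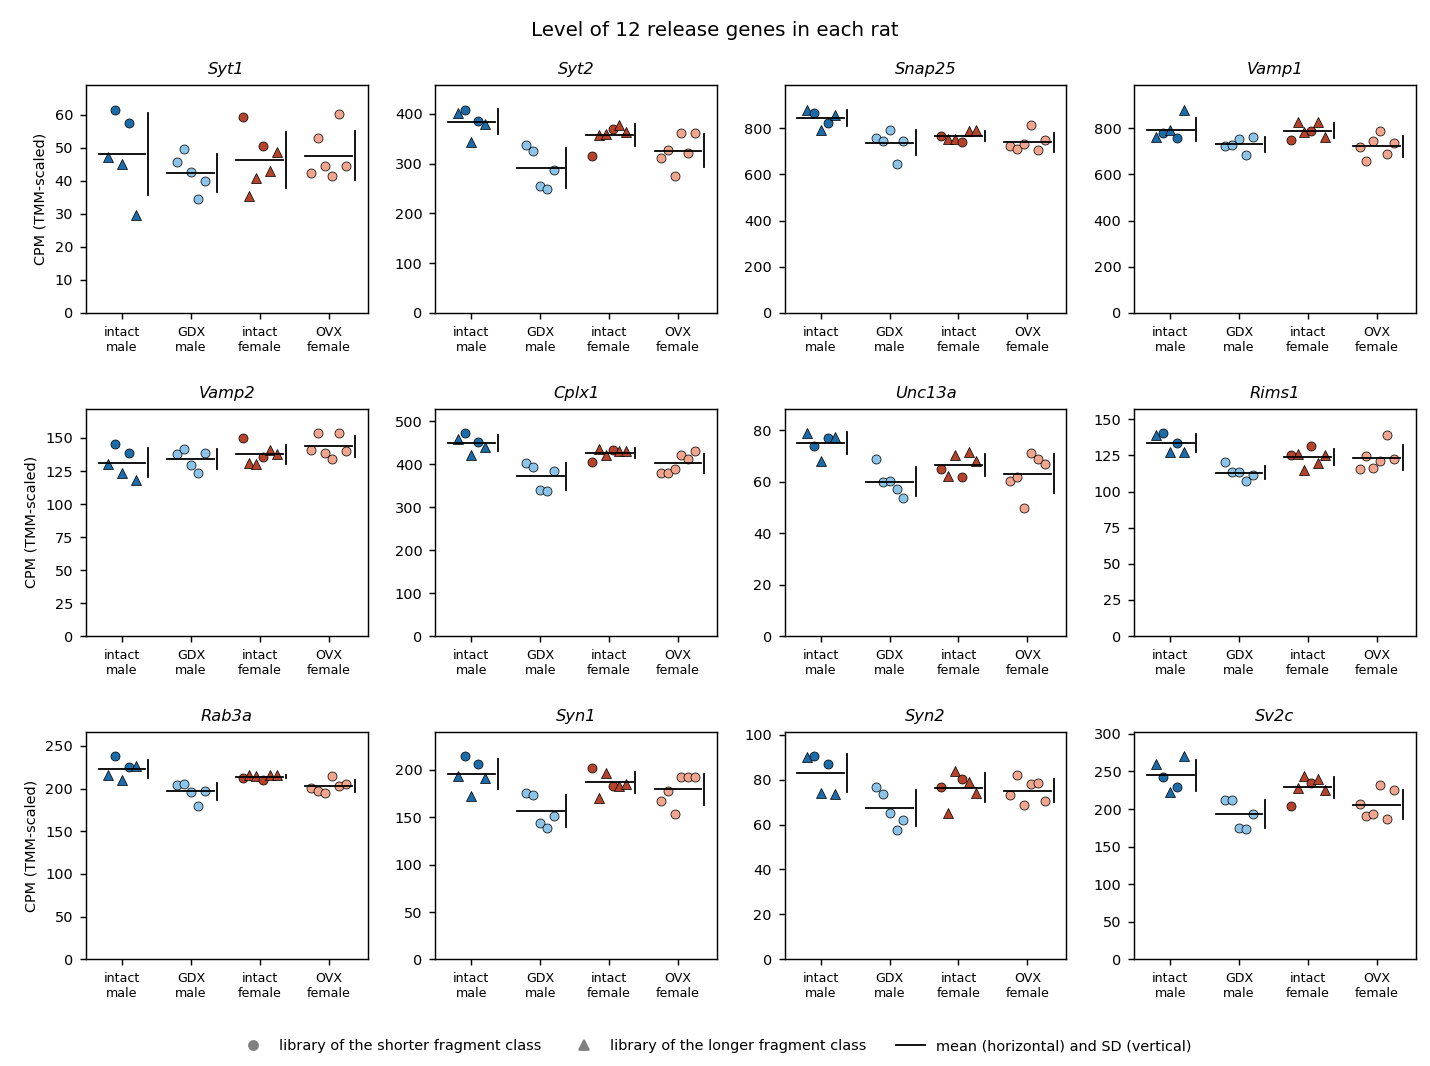
CPM of 12 core members in each rat (vertical axes start at 0), with circles for shorter and triangles for longer fragment class libraries, and lines for the group mean and SD. Syt2, Snap25, Cplx1, Rims1, Rab3a and Sv2c show GDX males entirely below intact males, Vamp2 shows overlapping groups, and in Syt1 the shorter class intact males and females lie high.

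Unc13a (Munc13-1), the priming factor that opens syntaxin for assembly, was 79.0, 74.1, 68.1, 76.8 and 77.5 CPM in intact and 69.0, 59.9, 60.3, 57.1 and 53.8 CPM in GDX males. GDX male 1 alone reached the level of the lowest intact male. Unc13a fell by 20.1% (log2 -0.32 ± 0.063, edgeR adjusted p = 0.00855), and in females it was 61.7 to 71.4 CPM (median 66.5) in intact and 50 to 71.0 CPM (median 64.4) in OVX rats. Unc13b and Unc13c, the relatives found at other central synapses, and Unc13d, known from blood cells, were not called in males, with estimates of 0.096, -0.077 and 0.04. Unc13d changed sign, to -0.15 with library class in the fit and -0.15 in the shorter class alone.

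Rims1, a scaffold that ties vesicles and calcium channels together at the active zone, was 139, 141, 127, 134 and 128 CPM in intact and 120.1, 113, 113, 108 and 111 CPM in GDX males. The groups were apart, with intact males 3 and 6 nearest to GDX male 1. Rims1 fell by 15.3% (log2 -0.24 ± 0.045, edgeR adjusted p = 0.00773). In females it was 115 to 131 CPM (median 125) in intact and 115 to 139 CPM (median 122) in OVX rats, a difference of -0.0023 ± 0.047, with OVX female 5 highest. Its relatives Rims2, Rims3 and Rims4 were not called, with male estimates of -0.092, 0.014 and -0.33. With library class in the fit Rims3 was at -0.33 and Rims4 at -0.61, and in the shorter class alone at -0.32 and -0.61, not called.

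Rab3a, the main vesicle Rab of brain and cord, was 216, 238, 210.3, 226 and 226 CPM in intact and 204, 205, 196, 180.1 and 197 CPM in GDX males. Rab3c was 51.0, 50.2, 46.1, 42.3 and 48.1 CPM in intact and 38.5, 41.5, 39.1, 37.9 and 42.2 CPM in GDX males. Neither gene's groups overlapped, though intact male 5 came close to GDX male 6 in Rab3c. Rab3a fell by 11.9% (log2 -0.18 ± 0.048, edgeR adjusted p = 0.0295) and Rab3c by 16.0% (log2 -0.25 ± 0.059, edgeR adjusted p = 0.0181). The Rab3c call was lost with library class in the fit, at -0.21, and in the shorter class alone, at -0.21, and the Rab3a call in the shorter class alone, at -0.24. In females Rab3a was 210.3 to 216 CPM (median 215) in intact and 195 to 215 CPM (median 202) in OVX rats, which overlapped.

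Rab3b followed another order. It was 25.9, 21.0, 25.3, 21.4 and 31.2 CPM in intact and 24.3, 27.6, 26.5, 33.1 and 28.5 CPM in GDX males, and 23.1 to 38.8 CPM (median 33.3) in intact and 19.1 to 28.5 CPM (median 25.9) in OVX females. Intact females 2 to 6 lay above every OVX female, intact female 1 lay among the OVX females, and the male groups overlapped. The log2 fold change was 0.17 ± 0.10 in males and -0.35 ± 0.10 in females (edgeR adjusted p = 0.257), the smallest adjusted p of any member in the female comparison. In males it became 0.40 with library class in the fit (edgeR adjusted p = 0.0877), called higher, and 0.40 in the shorter class alone (0.106), not called. By DESeq2 Rab3b was the only member called in females. Between longer and shorter libraries of intact rats its estimate was 0.38 ± 0.081, not called (edgeR adjusted p = 0.277).

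All synapsins were lower in GDX males. Syn1, the phosphoprotein that clusters reserve vesicles, was 194, 215, 172, 206 and 192 CPM in intact and 176, 173, 144, 139 and 151 CPM in GDX males. Syn2, which shares this role, was 90.0, 90.4, 74.1, 86.8 and 73.5 CPM in intact and 76.8, 73.7, 65.4, 57.6 and 62.2 CPM in GDX males. For both genes GDX males 1 and 2 reached the lowest intact males, and GDX males 4, 5 and 6 lay below all intact males. Syn1 fell by 19.9% (log2 -0.32 ± 0.073, edgeR adjusted p = 0.0161) and Syn2 by 19.0% (log2 -0.30 ± 0.083, edgeR adjusted p = 0.0347). Syn3, the least studied of the family, was 20.4, 23.0, 17.1, 18.2 and 18.8 CPM in intact and 17.7, 14.5, 12.1, 12.6 and 12.3 CPM in GDX males, with GDX male 1 inside the intact range. Its fall of 28.8% (log2 -0.49 ± 0.11, edgeR adjusted p = 0.0153) was the largest of all members tested. In females Syn1 was 170.3 to 202 CPM (median 184) in intact and 154 to 193 CPM (median 185) in OVX rats, and the 3 female estimates lay between -0.055 and -0.019.

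Sv2c, a vesicle protein found in motor and basal ganglia circuits, was 259, 242, 222, 229 and 270.4 CPM in intact and 212, 211, 175, 173 and 193 CPM in GDX males. Every GDX male lay below every intact male. Sv2c fell by 21.1% (log2 -0.34 ± 0.069, edgeR adjusted p = 0.00989), a call lost when library class entered the fit, at -0.29, and in the shorter class alone, at -0.29. In females Sv2c was 204 to 243 CPM (median 231) in intact and 187 to 233 CPM (median 200.3) in OVX rats, and its difference of -0.15 ± 0.056 was not called. Sv2a, the widespread form that binds the antiepileptic levetiracetam, was 124, 144, 113, 138 and 105 CPM in intact and 122, 116, 101, 93.8 and 105 CPM in GDX males. These overlapped, and the estimate of -0.21 ± 0.088 was not called (edgeR adjusted p = 0.157) except when library class entered the fit, in the shorter class alone, without intact male 6 and without GDX male 1. Its estimate was -0.39 with the class term and -0.39 in the shorter class.

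**Figure D3:**
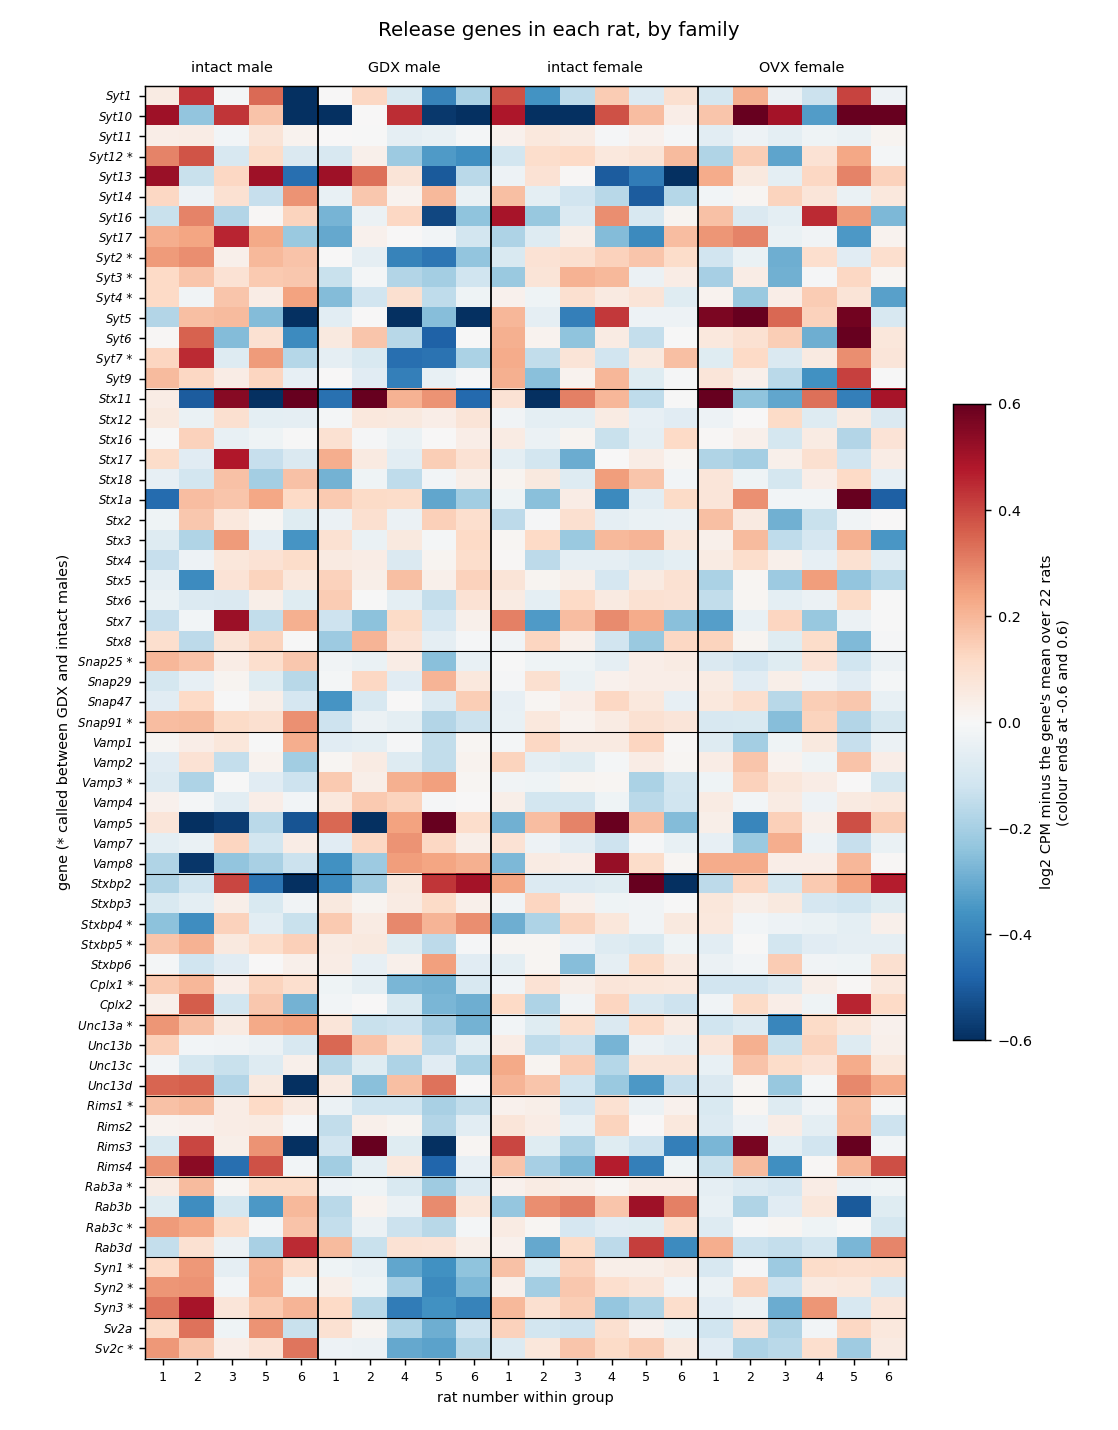
Log2 CPM of 63 members (rows, by family) in each of the 22 rats (columns), as the difference from the gene's mean over all rats, with red above and blue below and colour ending at -0.6 and 0.6. In the rows of Syt2, Cplx1 and the synapsins GDX males 4, 5 and 6 are bluer than GDX males 1 and 2, while most syntaxin rows are pale in all groups.

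In OVX against intact females no member passed the test. EdgeR called 0 of 66 members tested, where 0.0335% of all 14910 genes were called, and DESeq2 called 1, Rab3b, where it called 1.17% of all genes. At an unadjusted p under 0.05 there were 11 members, 5 lower and 6 higher, or 16.7% against 10.2% of all genes. The median over members was -0.0019, that over all genes 0.0025, and for the core -0.048 with 13 of 17 estimates negative. For no member did all OVX females lie on 1 side of all intact females. The share of all genes with such separation was not counted in females, so this 0 cannot be set against the male count. A call of 1 member appeared when intact female 1 was left out, and of none when any other female was. An adjusted p above the limit does not show that levels were equal. For Syt2 the interval of 95% of the female log2 difference ran from -0.24 to -0.0089, for Snap25 from -0.12 to 0.025, and for Rims1 from -0.095 to 0.09.

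Whether males and females responded differently was tested as an interaction over all 22 rats, GDX minus intact males less OVX minus intact females. EdgeR called 0 of 66 members (0.116% of all 15562 genes were called) and DESeq2 called 3, among them Rab3b and Rims1, where it called 1.56% of all genes. At an unadjusted p under 0.05 there were 20 members, 30.3% against 11.6% of all genes, 16 with a more negative change in males and 4 with a more positive one. The smallest edgeR adjusted p was 0.161, for Rims1 at a log2 difference of -0.23 ± 0.065, and Rab3c was at -0.23 ± 0.07 and Rab3b at 0.52 ± 0.16. The largest estimates were -1.32 ± 0.59 for Syt10, -0.78 ± 0.64 for Syt15 and 0.64 ± 0.32 for Vamp5, all scarce genes and none called. The median was -0.14 over members, -0.22 over the core and 0.0017 over all genes. Without GDX male 1 edgeR called 3 members, without intact female 1 it called 1, and without any other rat 0. With all 22 rats edgeR thus called no difference between the male and female responses of any member, which does not show that the responses were equal.

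Intact males and intact females were compared directly. EdgeR called 4 of 65 members, all higher in males, where 4.01% of all 14937 genes were called and 1.45% were called higher in males. They were Stxbp5 at 0.17 ± 0.037 (edgeR adjusted p = 0.0212), Snap25 at 0.14 ± 0.035 (0.0459), Unc13a at 0.18 ± 0.05 (0.0765) and Snap91 at 0.13 ± 0.039 (0.0981). For Stxbp5 and Snap91 every intact male lay above every intact female, in Snap91 narrowly, with intact male 5 at 157.8 CPM and intact female 5 at 157.4 CPM. How many of all genes show this order was not counted. The median was 0.067 over members and 0.097 over the core. With shorter class libraries only, 2 intact males and 2 intact females, 0 members were called, and without intact male 1 or intact male 2 only 1 was. In the shorter class alone the 4 called members kept their sign, and the median was 0.053 over members and 0.14 over the core. DESeq2 called 6 (5.49% of all genes) and the fit with library class 5 (4.2%), each with 1 member, Rab3b, lower in males. In the same comparison 6 of 8 meninges and fibroblast markers were called lower in males (median -1.23), as were 3 of 5 Schwann cell markers (median -1.50) and 1 of 5 endothelial markers, Cdh5, at -1.13 ± 0.16, and 0 of 12 neuron markers were called. This comparison shares its 5 intact males with the comparison of GDX and intact males, so the 2 are not independent. Side by side, Snap25 gave 0.14 here and -0.20 there, Unc13a 0.18 and -0.32, Stxbp5 0.17 and -0.16, and Snap91 0.13 and -0.28.

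Without gonads the sexes were set side by side in libraries of a single class. Between GDX males and OVX females edgeR called 0 of 66 members (0.232% of all 15084 genes were called) and DESeq2 called 2, Syt5 and Unc13c, with 0.862% of all genes. An unadjusted p under 0.05 was reached by 10 members, 15.2% against 9.37% of all genes, 9 of them lower in GDX males. The smallest was that of Unc13c, a Munc13 form best known from the cerebellum, at -0.24 ± 0.052 (edgeR adjusted p = 0.128). Syt5 was at -0.73 ± 0.19 and Syt7 at -0.30 ± 0.086. The median was -0.058 over members and -0.11 over the core.

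Library class was compared within the 11 intact rats, longer against shorter, with sex as a term. EdgeR called 0 of 66 members, as it called 0% of all 15723 genes, and DESeq2 called 4, Cplx2, Rab3b, Sv2a and Syt1, with 0.375% of all genes. An unadjusted p under 0.05 was reached by 10 members, 15.2% against 7.75% of all genes. Besides the values given above these include Sv2a at -0.24 ± 0.05, Vamp2 at -0.14 ± 0.045 and Syn1 at -0.12 ± 0.05, each lower in longer libraries. The median over members was -0.014.

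Further presynaptic genes outside the symbol rule were also lower in GDX males. Of 43 such genes tested 20 were called lower in GDX males and 0 higher, where 6.58% of all genes were called lower, with a median of -0.19. In OVX females 0 of the 43 were called by edgeR, 7 had an unadjusted p under 0.05, and the median was -0.028. Of the vesicle membrane genes 6 of 9 were called lower in GDX males, among them Syp (synaptophysin, the most used vesicle marker) at -0.25 ± 0.063 (edgeR adjusted p = 0.0233), Syngr3 at -0.39 ± 0.093 (0.02) and the proton pump subunit Atp6v1a at -0.16 ± 0.047 (0.0486). Syp averaged 210.0 ± 14.9 CPM (SD, n = 5) in intact and 176 ± 15.2 CPM (n = 5) in GDX males, and 198 ± 3.17 CPM (n = 6) in intact and 183 ± 9.02 CPM (n = 6) in OVX females.

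At the active zone 5 of 12 genes were called lower in GDX males, beside the same 6.58% of all genes. They include the giant scaffolds Bsn (bassoon) at -0.35 ± 0.089 (edgeR adjusted p = 0.0257) and Pclo (piccolo) at -0.23 ± 0.048 (0.0106), and the adhesion molecule Nrxn3 at -0.34 ± 0.073 (0.0121). Among genes of priming and SNARE recycling 5 of 13 were called lower, led by Nsf, the ATPase that takes spent SNARE complexes apart, at -0.33 ± 0.056 (0.00554), and Cadps (CAPS1) at -0.30 ± 0.056 (0.00773). Endocytosis had 4 of 9 called lower, with Dnm1 (dynamin 1, which cuts off endocytic buds) at -0.34 ± 0.09 (0.0313) and Sh3gl2 (endophilin A1) at -0.25 ± 0.047 (0.0082). The p-values of this paragraph are edgeR adjusted p.

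**Figure D4:**
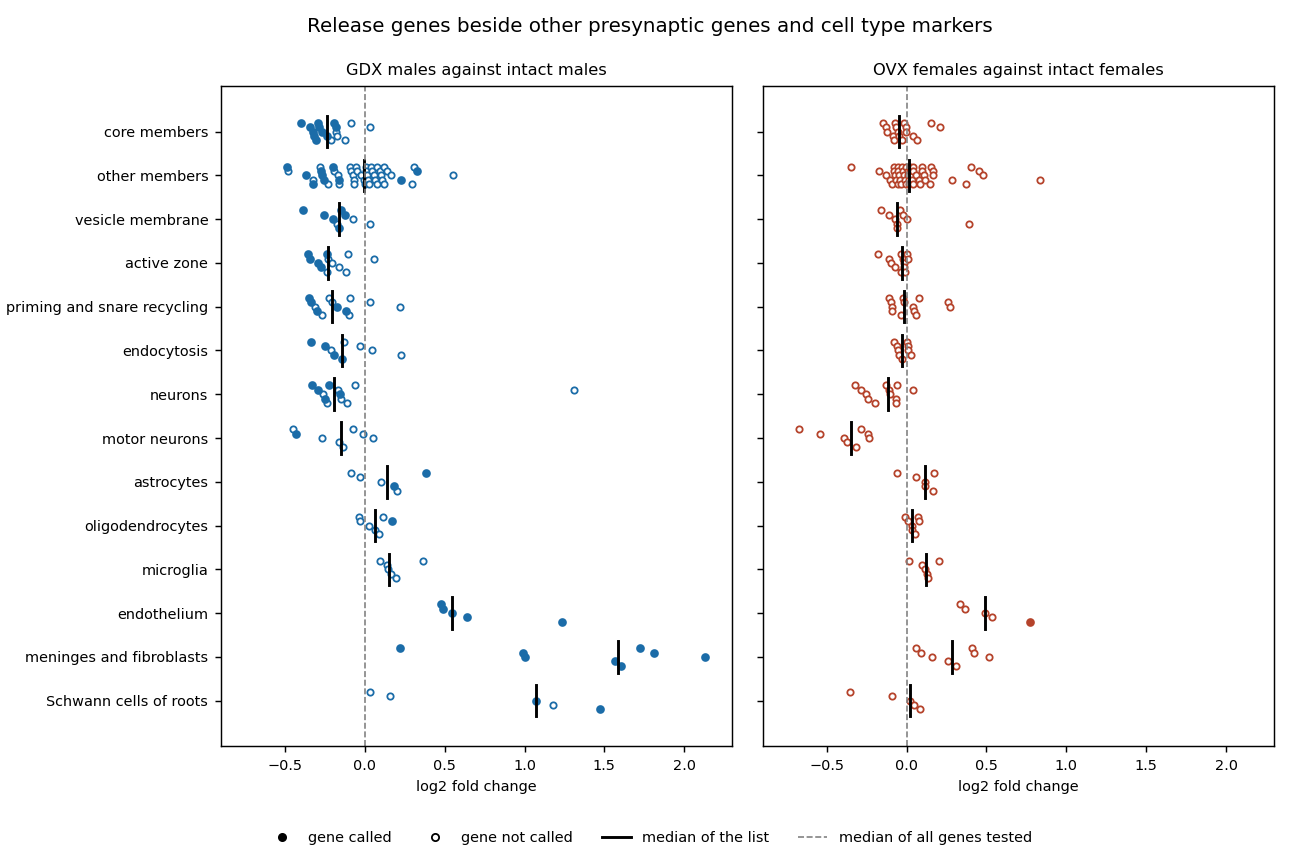
Log2 fold change (horizontal axis) of every tested gene of the core, the other members, other presynaptic lists and cell type markers, for GDX against intact males (left) and OVX against intact females (right), with list medians as black bars and the median of all genes as a dashed line. In males the core median is -0.24 and that of the neuron markers -0.19, and markers of meninges and endothelium lie to the right.

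Marker genes of cell types were read in the same comparisons. The tissue held the defining markers of cord, with Nefm (5466 CPM on average), Gfap (3506), Mbp (12316) and the motor neuron gene Prph (235) as the genes of highest CPM in the neuron, astrocyte, oligodendrocyte and motor neuron lists, and no marker of these lists was at 0 in any library. Of 12 neuron markers 5 were called lower in GDX males (6.58% of all genes were) and 0 higher (6.78% of all genes), with a median of -0.19. Among them Rbfox3 (NeuN) was at -0.33 ± 0.082 and Uchl1 at -0.22 ± 0.043 (edgeR adjusted p = 0.024 and 0.00814). Eno2 had the only positive estimate, 1.31 ± 0.68, which was not called, with 3.07 ± 0.738 CPM (SD, n = 5) in intact and 7.68 ± 12.04 CPM (n = 5) in GDX males, of which GDX male 5 had 29.2 CPM. Summed, the 12 markers were 18712, 16927, 19820.1, 17534 and 24810.4 CPM in intact and 16718, 17388, 14941, 15896 and 17778 CPM in GDX males, which overlapped, and 16558 to 21838 CPM (median 20130.4) in intact and 14922 to 19264 CPM (median 16464) in OVX females. In intact rats all 12 were higher in longer class libraries, the class of 3 intact males and of no GDX male, with a median of 0.056, 5 at an unadjusted p under 0.05 (7.75% of all genes) and 0 called. Nefm was at 0.33 ± 0.089 and Nefh at 0.30 ± 0.079 in that comparison. The shorter class intact males 2 and 5 lay within the GDX range of the summed level. That level rested mostly on Nefl, Nefm and Nefh, with 4392, 5620 and 4655 of the 18712 CPM of intact male 1. In OVX females 0 of 12 were called and 8 had an unadjusted p under 0.05 (10.2% of all genes), with a median of -0.12.

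The motor neuron list had 1 of 8 genes called in GDX males, Slc18a3 (the vesicular acetylcholine transporter) at -0.43 ± 0.13 (edgeR adjusted p = 0.0542), where 13.4% of all genes were called, and a median of -0.15. In OVX females 0 of 8 were called, 7 had an unadjusted p under 0.05 where 10.2% of all genes did, and the median was -0.35. Summed motor neuron markers were 646, 554, 749.6, 567 and 991 CPM in intact and 597, 650.2, 663, 666 and 739 CPM in GDX males, and 625 to 884 CPM (median 817) in intact and 501 to 756 CPM (median 628) in OVX females. In intact rats all 8 were higher in longer class libraries, each at an unadjusted p under 0.05, with a median of 0.40 and 0 called. In females the motor neuron median thus lay below that of the core, -0.048, and in males above it.

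Markers of meninges and of blood vessels were higher in GDX males. All 8 meninges and fibroblast markers tested were called higher, beside 6.78% of all genes, with a median of 1.59. Col1a1 had the highest CPM of the list (85.7 on average), Ogn was at 0 in at least 1 library, and Col1a2 was not analysed here. Their summed level was 206, 149, 154, 110.3 and 90.3 CPM in intact and 189, 302, 424, 538 and 453 CPM in GDX males, and 159 to 459 CPM (median 327) in intact and 292 to 478 CPM (median 361) in OVX females. By this sum GDX male 1 and intact females 1 and 2 lay within the range of the intact males, and every OVX female lay above it. All 5 endothelial markers tested were called higher in GDX males, with a median of 0.54 and the highest CPM for Flt1 (50.3), and Pecam1 was not analysed here. Summed, they were 73.7, 107, 83.1, 101 and 84.4 CPM in intact and 152, 159, 127, 139 and 114 CPM in GDX males, and 78.5 to 150.2 CPM (median 107) in intact and 126 to 185 CPM (median 163) in OVX females. In OVX against intact females all 5 had a positive estimate and an unadjusted p under 0.05, with a median of 0.49, and 1 was called, Kdr at 0.77 ± 0.13 (edgeR adjusted p = 0.0966). The median of their interaction was 0.010, with 0 called. Of the 8 meninges markers 0 were called in OVX females and 0 had an unadjusted p under 0.05, with a median of 0.28.

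Astrocyte markers had 2 of 6 called higher in GDX males (6.78% of all genes were), Gfap at 0.38 ± 0.059 (edgeR adjusted p = 0.00472) and Aqp4 at 0.18 ± 0.044 (0.0209). Their sum was 5773, 6115, 6416, 6369 and 5988 CPM in intact and 7087, 7182, 6829, 7836 and 7197 CPM in GDX males, and 5498 to 7195 CPM (median 6389) in intact and 6365 to 7259 CPM (median 6867) in OVX females. Oligodendrocyte markers had 1 of 7 called higher, Mbp at 0.17 ± 0.053, with sums of 21963 to 25596 CPM (median 23628) in intact and 24824 to 27882 CPM (median 25482) in GDX males and 22864 to 25814 CPM (median 24406) and 22468 to 25732 CPM (median 25167) in intact and OVX females. Microglial markers had 0 of 6 called by edgeR, 1 with an unadjusted p under 0.05, Csf1r (85.2) as the gene of highest CPM, and sums of 139 to 168 CPM (median 152) in intact and 145 to 199 CPM (median 168) in GDX males and 139 to 175 CPM (median 158) and 154 to 181 CPM (median 172) in intact and OVX females. Schwann cell markers of the roots had 2 of 5 called higher in GDX males, among them Prx at 1.07 ± 0.38, with the highest CPM for Pllp (117) and Egr2 and Ncmap at 0 in at least 1 library each. Schwann cell sums were 158 to 197 CPM (median 167) in intact and 175 to 222 CPM (median 211) in GDX males, and 199 to 257 CPM (median 222) in intact and 209 to 239.9 CPM (median 218) in OVX females.

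Within groups the lists can be read beside the core rat by rat. The mean log2 CPM of the 17 core members was 7.34, 7.46, 7.25, 7.40 and 7.27 in the intact males and 7.24, 7.22, 7.09, 6.95 and 7.09 in the GDX males, with GDX males 4, 5 and 6 lowest. In the same rats the meninges and fibroblast list was 3.06, 3.09, 2.90, 2.32 and 2.19 and 3.29, 3.53, 4.19, 4.64 and 4.31, with GDX males 4, 5 and 6 highest, and the neuron list was 8.55, 8.45, 8.50, 8.42 and 8.71 and 8.33, 8.38, 8.25, 8.54 and 8.36. The value of GDX male 5 rested on Eno2, since without that gene the neuron list was 9.05 to 9.36 in intact and 8.88 to 9.02 in GDX males, with GDX male 5 lowest. In intact females the core lay at 7.19 to 7.29 while the meninges list spanned 3.15 to 4.44, with the highest meninges value in intact female 4. In OVX females 1 to 6 the core was 7.17, 7.24, 7.12, 7.27, 7.34 and 7.24 and the meninges list 4.39, 3.82, 4.39, 3.87, 3.77 and 3.85, with OVX females 1 and 3 lowest in the core and highest in meninges. The part of these cell type markers in the lower level of release genes was not tested.

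**Figure D5:**
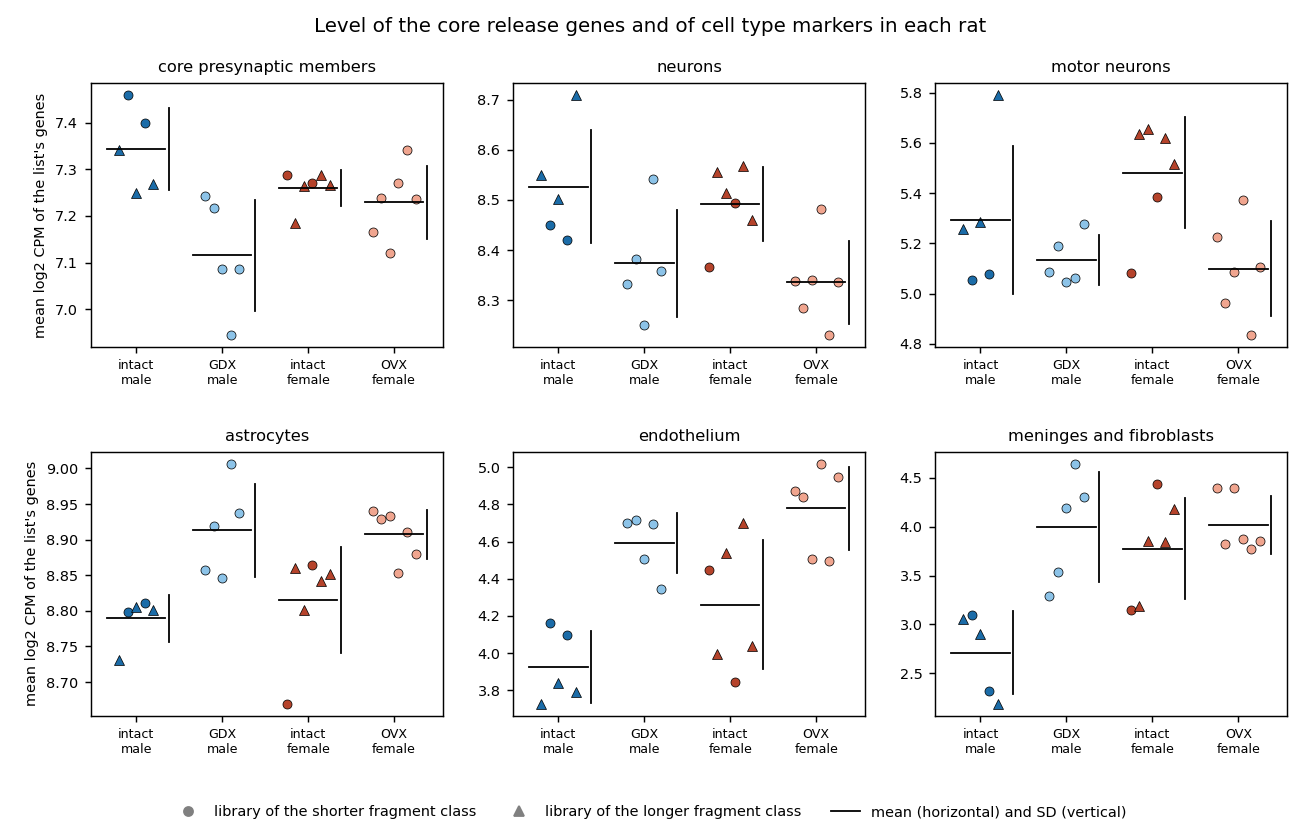
Mean log2 CPM of the genes of 6 lists in each rat (vertical axes differ and do not start at 0), with circles for shorter and triangles for longer fragment class libraries, and lines for the group mean and SD. GDX males are low in the core list and intact males low in the endothelium and meninges lists, where the female groups overlap the GDX males.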

How the data were processed

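RNA-seq counts of genes, as deposited, were made by the authors, per the paper with Trimmomatic, Hisat2 and featureCounts of Subread. The submitters' notes also name Subread, but TopHat2 in place of Hisat2 as the aligner. Reads carried no molecular identifiers, and settings for strand and for reads that match several places are not given in the sources used here, so levels of close paralogs may share reads. Raw counts of 22 rats were tested here with edgeR 4.0.16 (quasi-likelihood test, filterByExpr, TMM factors, Benjamini-Hochberg adjustment over all genes tested, level 0.1) in R 4.3.3, with limma 3.58.1 loaded. The tests were repeated with RLE factors, with DESeq2 1.42.0, at a level of 0.05, without the filter, in 1 fit of all rats, with a replicate block, with a term for library class, in the shorter class alone and without each rat. Scripts were tested on simulated data. Genes named were the core, members called after GDX or OVX or in the interaction, and the 3 with the largest change in each direction there, and any others were noticed after their values were seen. Some genes are not reported here. Members and lists were chosen with earlier results of these data known. Y-linked genes were expressed in 10 of 10 males and 0 of 12 females.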

Additional observations from a re-analysis of the deposited data

Results flagged for a closer look

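In 192 groups of values from single rats, 12 held a rat far from the rest of its group by Dixon's test at 95%, and about 1 in 20 groups would do so by chance. Among members, OVX female 5 stood high in Cplx2, at 81.9 CPM where other OVX females had 58.6 to 64.9, and in Rims1, at 139 CPM against 115 to 124. Intact female 2 was low in Stx11, at 0.138 CPM against 0.601 to 0.871, and intact female 1 was low in Syt2, at 316 CPM against 358 to 377. Intact male 1 was low in Stx1a, at 2.55 CPM against 3.87 to 4.2, and intact male 2 in Vamp8, at 4.37 CPM against 5.59 to 6.04.

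Among list means in log2 CPM, astrocyte markers were low in intact male 1 (8.73 against 8.8 to 8.81) and in intact female 1 (8.67 against 8.8 to 8.86). Intact male 1 was also low in the endocytosis list (6.87 against 6.96 to 7). OVX female 4 was low in oligodendrocyte markers (10.2, where the next was 10.3) and in microglial markers (3.9 against 4.19 to 4.26). Intact female 2 was low in the core members, at 7.19 against 7.26 to 7.29.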

How the results depend on the processing

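Every member called in GDX males kept its sign in all settings. Among the uncalled, Vamp2, Rims3, Unc13d, Syt14, Stx2, Stx7, Stx8, Stx16 and Stx18 changed sign with library class as a term and in the shorter class alone, and Stx4 with the term. With the replicate block 4 members changed sign, without the filter 2, and in fits that left out 1 male 2 to 6. In OVX against intact females 11 of 66 members changed sign with library class as a term and 13 in the shorter class alone. Syt1, Syt7, Syt12 and Syt15 were among them in both settings. Between intact males and females 1 and 12 members changed sign in these settings, and for the interaction 1 and 9. In GDX against intact males the count of members called ran from 15 to 22 over the alternatives, and leaving out 1 rat gave 16 to 21, with medians from -0.124 to -0.066. That median moved to -0.137385 with library class as a term and to -0.135632 in the shorter class alone, and the cause was not tested. In OVX against intact females DESeq2 called 1 member, and leaving out 1 rat gave 0 to 1, with medians from -0.017 to 0.0089. For the interaction DESeq2 called 3, and leaving out 1 rat gave 0 to 3, with medians from -0.143884 to -0.0879412. Between intact males and females the count of 4 became 6 with DESeq2, 5 with library class as a term, 2 at an adjusted p under 0.05, 2 in 1 fit of all 22 rats and 0 in the shorter class alone, and leaving out 1 rat gave 1 to 5. Between GDX males and OVX females DESeq2 called 2, the fit of all rats called 1, and leaving out 1 rat gave 0 to 1. For library class in intact rats DESeq2 called 4, as did edgeR without the filter, and leaving out 1 rat gave 0.

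With the rat number as a replicate block 22 members were called in GDX against intact males and 1 between intact males and females. The numbers do not pair the rats, since correlations of rats sharing a number ran from -0.114 to 0.063, with 0 above 0.1 and 0 pairs in which a rat correlated best with its own number.

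Groups of 5 or 6 rats and bulk tissue limit these results. Fragment class differs between intact and operated rats, and only 2 intact males were of the shorter class. Reads were not realigned, and protein was not measured.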
